A study of Arabidopsis thaliana with 36 samples.

Results

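The chloroplast genome of Arabidopsis thaliana was represented in the count files by 133 loci whose identifier starts with ATCG. Counts were summed per locus, and the 62 loci with at least 30 counts over the 36 libraries are described here, out of 37336 loci of all genomes. Of the other chloroplast loci, 59 had no count in any library and 12 had between 1 and 29 counts. Just above the limit were ATCG01060 with 30 counts, ATCG01080 with 39 and ATCG00510 with 40, and just below it were ATCG00710 with 26 and ATCG00580 with 12.

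The chloroplast genome codes for a part of each photosynthetic complex, for the large subunit of Rubisco, and for part of the organelle's own ribosomes, RNA polymerase, rRNAs and tRNAs. The other subunits come from nuclear genes. Chloroplast genes are mostly transcribed in long units by a bacterial-type polymerase, which needs nuclear-encoded sigma factors, and by phage-type polymerases. Nuclear-encoded RNA-binding proteins then cut the transcripts, protect their ends and edit them. Unlike in a nuclear mRNA, a poly(A) tail marks a chloroplast RNA for breakdown.

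The study asked how seedlings that lack regulators of the unfolded protein response (UPR) react to agents that disturb protein folding in the secretory pathway. Whole 12-day-old seedlings stood for 6 h in water to which an agent or, as mock, an equal amount of its DMSO solvent had been added. In wild type (WT) the agents were 5 µg/ml tunicamycin (Tm), which blocks N-glycosylation, 2 mM dithiothreitol (DTT), which reduces disulfide bonds, and 5 mM azetidine-2-carboxylate (AZC), a proline analogue. Mock and Tm at the same dose were also applied to 4 double knockouts, named bzip17/28, bzip28/60, bzip17/60 and s1p/s2p. bZIP17, bZIP28 and bZIP60 are transcription factors of the UPR, and S1P and S2P are proteases that cut the membrane-bound forms of bZIP17 and bZIP28. Each of the 12 groups had 3 libraries, made by 3'-end sequencing of whole-seedling RNA. Nothing in the labels states that the repeats are separate cultures, and the spread behind each p-value may therefore be technical.

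Libraries held 1278322 to 2810235 assigned counts. BZIP17 was at 0 to 1.39 CPM in the 12 libraries knocked out for it and at 3.04 to 15.4 CPM in the others, where CPM is the count scaled by library size and TMM factor. BZIP28 was at 0 to 14.6 CPM against 19.9 to 48.5 CPM. Its 2 knockout lines differed, with 0 to 0.453 CPM in bzip17/28 and 8.97 to 14.6 CPM in bzip28/60, beside a mean of 24.5 CPM in WT mock. BZIP60 was at 26.0 to 37.3 CPM against 110.5 to 1871 CPM, while S1P had at most 1 count in any library and checks nothing. All 6 green tissue markers on the list were detected, at very unlike depth. LHCB6 had 377288 counts over all libraries and GAPB 207122, beside 1175 for RCA and 609 for CA1. LHCB6 and GAPB thus carry most of the marker sum. The summed green markers were at 6166 to 10147 CPM in the WT libraries and at 9137 to 12579 CPM in the mutant libraries. The summed root markers were at 119 to 137 CPM in WT mock, 117 to 136 CPM in WT Tm, 74.9 to 98.2 CPM in WT AZC and 10.1 to 16.6 CPM in WT DTT. In whole seedlings, fewer cells of a type and less RNA per cell cannot be told apart.

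The files and the reference table do not pair most ATCG identifiers with gene names, and those loci are given by identifier alone. Of the 62 loci, 5 are named here, because a note on a nuclear gene in the reference names the identifier and that nuclear gene's sequence has its best plastid match in 1 gene, at 32.8 to 68.4% identity. ATCG00420 is ndhJ and ATCG00430 is ndhK, subunits of the NADH dehydrogenase-like complex of cyclic electron flow, although the note calls ATCG00430 a photosystem II protein. ATCG00670 is clpP, the catalytic subunit of the stromal Clp protease. ATCG00660 is rpl20, a protein of the large ribosomal subunit, and ATCG00530 is cemA, a protein of the inner envelope.

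Chloroplast loci took a small and fairly even part of the libraries. They held 467715 of 71820707 assigned counts, or 0.651%, and the share of a library's assigned counts ran from 0.489 to 0.819% with a median of 0.665%. Taken over all reads of a library, unassigned ones included, it ran from 0.284 to 0.442%. The 152 mitochondrial loci together held 0.0046 to 0.0194% of assigned counts. In WT the chloroplast share was 0.610 ± 0.040% under mock, 0.734 ± 0.085% with Tm, 0.662 ± 0.131% with DTT and 0.575 ± 0.050% with AZC (mean ± SD, n = 3). The 3 WT Tm libraries all lay above the 3 WT AZC libraries, by 0.35 on the log2 scale, while each inducer overlapped with mock. In bzip17/28 the share was 0.608 ± 0.048% under mock and 0.721 ± 0.031% with Tm, a log2 ratio of 0.25 with no overlap. The other pairs of mock and Tm overlapped, at 0.588 and 0.642% in bzip28/60, 0.701 and 0.686% in bzip17/60, and 0.613 and 0.690% in s1p/s2p. The bzip17/60 mock libraries lay above WT mock by 0.20 on the log2 scale, and without the locus with the most counts the ratio was -0.060. These are descriptions, and no test was made of the shares.

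**Figure D1:**
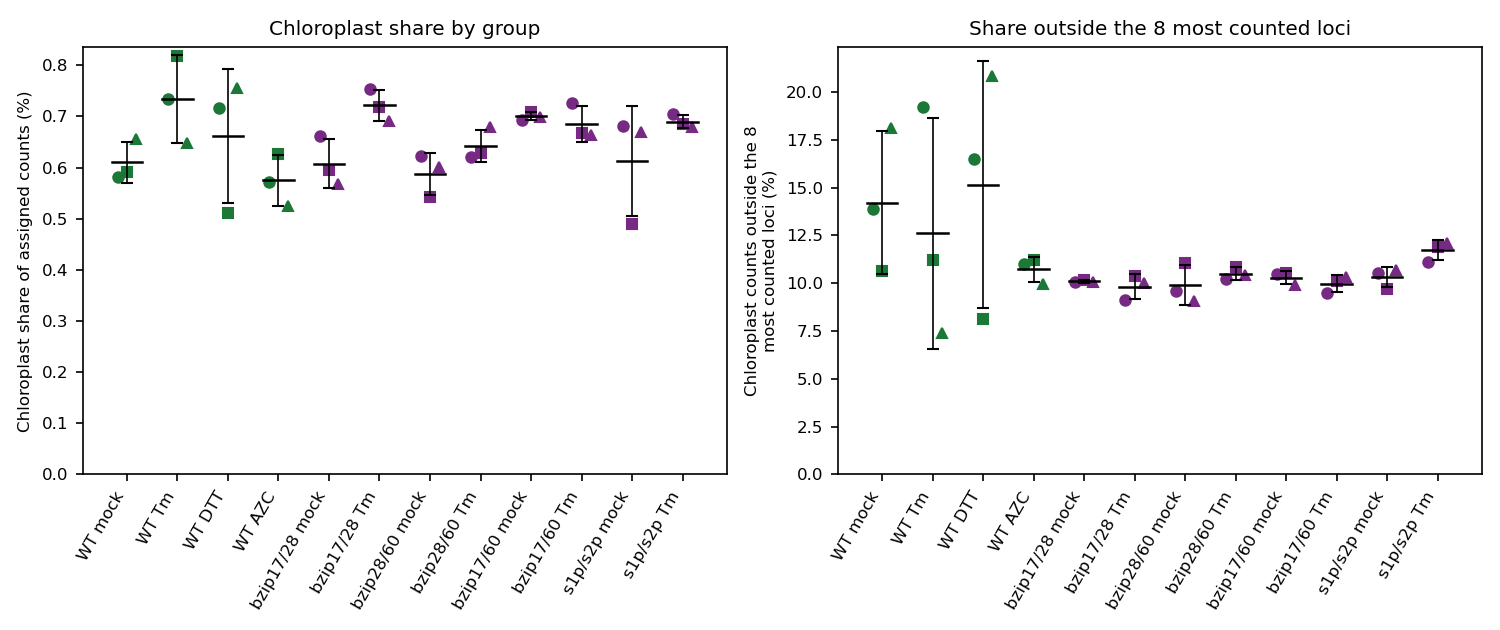
Left, share of a library's assigned counts on chloroplast loci (%); right, share of the chloroplast counts outside the 8 most counted loci (%). Points are libraries (circle, square and triangle for repeats 1, 2 and 3; green WT, purple double mutants), bars are the mean and SD of 3; the WT mock, Tm and DTT libraries spread from 7.37 to 20.8% on the right, the mutants from 9.06 to 12.1%.

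A few loci held most of the counts. ATCG00470 had 202777 counts, 43.4% of all chloroplast counts, ATCG01130 had 74641 and ATCG00440 had 59896, and these 3 made up 72.1%. With ATCG01020 (20064 counts), ATCG00790 (18269), ATCG00740 (17751), ATCG00800 (11271) and ATCG00480 (11101), 8 loci made up 88.9%. These are shares of counts at 3' ends, not levels per length, and lengths of the loci were not used. Whether such counts follow the amount of intact chloroplast RNA was not tested. ndhJ was the most counted of the 5 named loci with 4880 counts, and clpP had 3065. Of the 62 loci, 12 had 30 to 99 counts, and 39 were counted in every library.

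**Figure D2:**
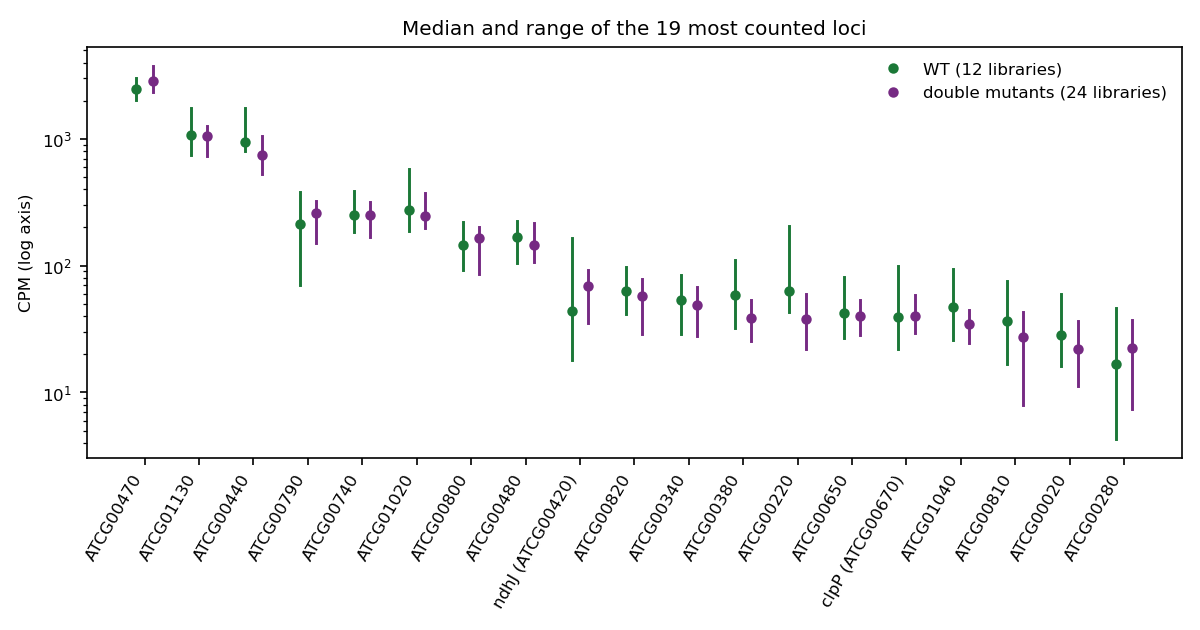
CPM of the 19 chloroplast loci with a median of at least 20 CPM (log axis). Points are medians and lines are ranges over the 12 WT libraries (green) and the 24 double mutant libraries (purple). ATCG00470 lies between 2029 and 3777 CPM in all libraries, and ATCG00220 reaches 207 CPM in WT and 60.2 CPM in the mutants.

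The most counted locus was also among the steadiest. ATCG00470 ran from 2029 to 3777 CPM, a range of 1.86-fold, and ATCG01130 from 733 to 1738 CPM, 2.37-fold. ndhJ ran from 18.2 to 164 CPM, 9.04-fold, with both ends in WT Tm. ATCG00630 ran from 1.13 to 56.5 CPM, 50.2-fold, with its highest value in WT Tm and its lowest in bzip17/60 Tm. rpl20 had a median of 7.54 CPM and cemA one of 2.23 CPM. The 11 loci with a median under 1 CPM rest on a few counts.

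Repeats of the same group differed most in WT Tm and WT DTT. The chi-square of repeat pairs over its degrees of freedom, taken over chloroplast loci, was 22.0 to 43.8 in WT Tm, 4.42 to 29.5 in WT DTT and 3.79 to 12.8 in WT mock, against 2.48 to 4.44 in WT AZC and 1.30 to 6.67 in the mutant groups. Over all loci WT Tm stood apart as well, at 8.96 to 12.1 beside 1.505 to 5.80 in the other 11 groups, with a biological coefficient of variation of 28.6% beside 5.63 to 14.5%. Counts outside the 8 most counted loci were 13.9, 10.6 and 18.1% of the chloroplast counts in WT mock, 19.2, 11.2 and 7.37% in WT Tm, and 16.5, 8.12 and 20.8% in WT DTT. WT Tm repeat 3 and WT DTT repeat 2 were the lowest of these and WT DTT repeat 3 was the highest. The AZC libraries, at 11.0, 11.2 and 9.98%, lay inside the range of the mutants. No test was made of this spread.

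Differences between groups were tested with edgeR's quasi-likelihood test on all 14415 loci with at least 30 counts, with p-values adjusted by Benjamini-Hochberg over all of them and a threshold of 0.05. Values below are log2 fold changes ± standard error with this adjusted p. Of the 62 chloroplast loci, 32 passed in at least 1 of 18 comparisons, 69 times in all, and 30 never did. The share of all 14415 loci that passed at least once was not taken. In a single comparison 1.29 to 16.5% of all loci were called, so the 32 are not a result particular to chloroplast loci. Of the loci that passed, 31 are shown with their fold changes in the plot of called loci by comparison.

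**Figure D3:**
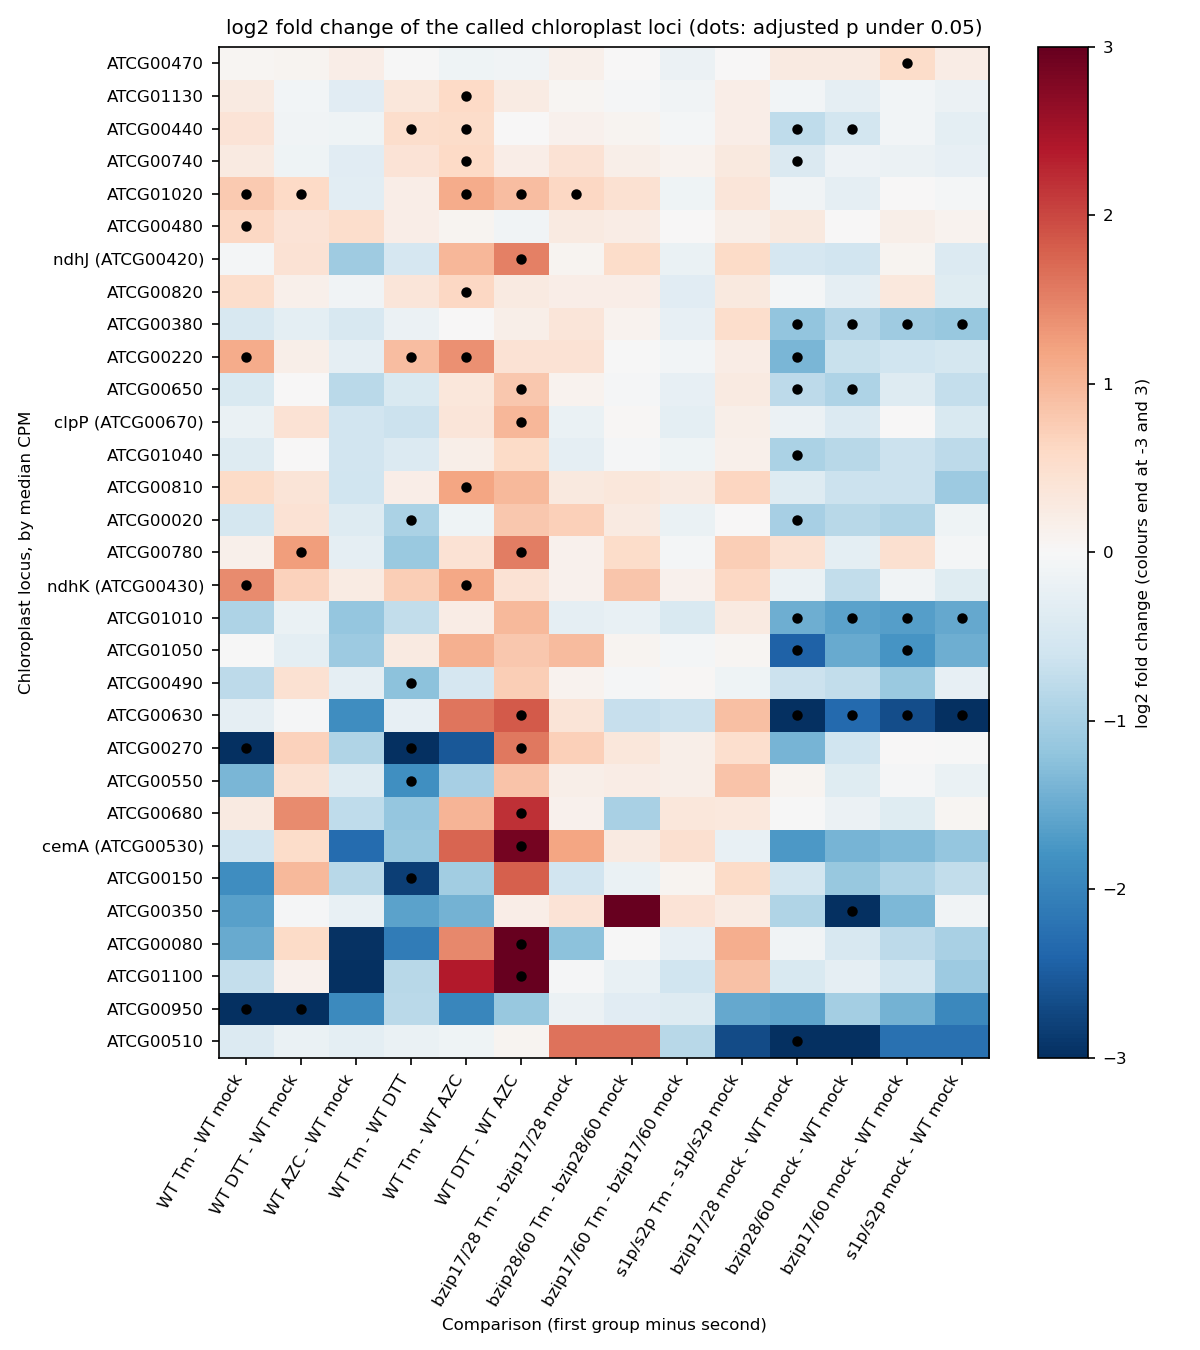
log2 fold change (colour, ending at -3 and 3) of 31 chloroplast loci called in a comparison, by median CPM from top to bottom, in 14 comparisons of 2 groups; a dot marks an adjusted p under 0.05. ATCG00380, ATCG00630 and ATCG01010 have a dot in all 4 comparisons of a mutant with WT under mock, which share the WT mock libraries.

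Tunicamycin in WT was followed by higher counts of 4 chloroplast loci and lower counts of 2, against 11.2% of all loci called in this comparison. The median of the 62 loci was -0.29, with 21 above 0 and 41 below, beside a median of 0.01 over all loci. Both the median and the counts moved when 1 library was left out. Without Tm repeat 1 the median was -1.03, with 4 loci higher and 13 lower, and without Tm repeat 3 it was 0.11, with 6 higher and 2 lower. Without WT mock repeat 3 it was 0.07, with 5 higher and 2 lower. ATCG00220 was at 66.9, 58.6 and 59.1 CPM under mock and at 112, 207 and 84.5 CPM with Tm, with no overlap and repeat 2 far above the other Tm libraries. It rose by 1.11 ± 0.23 (adjusted p = 0.00074), with a value of 0.67 (adjusted p = 0.064) without that library. ATCG01020 was at 239, 199 and 316 CPM under mock and at 376, 576 and 349 CPM with Tm, again highest in repeat 2. It rose by 0.78 ± 0.18 (adjusted p = 0.0021), a call lost with only the compared libraries in the fit (adjusted p = 0.11). Its value was 0.53 (adjusted p = 0.068) without repeat 2. That library also had the lowest green marker sum of all 36, at 6166 CPM beside 8267 and 8985 CPM in the other Tm libraries, and the part of this in the results was not tested.

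ndhK rose with Tm as well, while ndhJ, of the same complex, had no call. ndhK was at 14.6, 7.68 and 26.5 CPM under mock and at 72.4, 55.0 and 12.3 CPM with Tm, so that 1 Tm library lay inside the mock range. Its change was 1.41 ± 0.37 (adjusted p = 0.0074), and it was lost without WT Tm repeat 1 (0.91, adjusted p = 0.12), without WT Tm repeat 2 (1.25, adjusted p = 0.055) and without WT mock repeat 2 (1.10, adjusted p = 0.069). ndhJ was at 78.5, 41.2 and 107 CPM under mock and at 164, 43.5 and 18.2 CPM with Tm, a change of -0.07 ± 0.37 (adjusted p = 0.95). Both were highest in Tm repeat 1 and lowest in Tm repeat 3, while in Tm repeat 2 ndhK lay above all 3 mock libraries and ndhJ inside their range. ATCG00480 was at 105, 141 and 132 CPM under mock and at 187, 189 and 209 CPM with Tm. It rose by 0.63 ± 0.17 (adjusted p = 0.011), with the 3 Tm libraries closer to each other than for the other 3 loci, and the call was lost without WT mock repeat 1 (0.51, adjusted p = 0.096). Both this call and that of ndhK were also lost with a spread per group (limma-voom) and with only the compared libraries in the fit.

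The 2 loci that fell with Tm have few counts. ATCG00270 had 13, 3 and 11 counts under mock and 2, 0 and 0 with Tm, a ratio of 12.4 with a 95% counting interval of 3.11 to 107 (adjusted p = 0.0045). ATCG00950 had 6, 7 and 7 counts under mock and 1, 0 and 0 with Tm, a ratio of 18.3 (interval 2.93 to 759, adjusted p = 0.0035). The groups did not overlap for either locus, and both calls were kept with any 1 library left out. With a spread per group (limma-voom), the adjusted p was 0.12 for ATCG00270 and 0.055 for ATCG00950. These intervals cover counting error only.

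With dithiothreitol 2 chloroplast loci were higher and 1 lower, against 11.0% of all loci. The median of the 62 loci was 0.17, with 40 above 0. Without DTT repeat 2 the median was 0.53 with 7 loci higher and none lower, and without DTT repeat 3 it was -0.06 with none higher and 1 lower. ATCG01020 was at 384, 227 and 528 CPM with DTT and rose by 0.59 ± 0.18 (adjusted p = 0.022). Its lowest DTT library lay inside the mock range, and the call was lost without WT DTT repeat 1 or 3 and without WT mock repeat 1 or 2, with an adjusted p of up to 0.36. ATCG00780 was at 15.8, 9.77 and 18.96 CPM under mock and at 54.2, 5.11 and 50.3 CPM with DTT, with 1 DTT library below all mock libraries. It rose by 1.26 ± 0.43 (adjusted p = 0.0497), a call lost under 4 of 10 other settings and with any 1 library left out except DTT repeat 2. Its change was 0.80 (adjusted p = 0.38) without DTT repeat 1 and 1.02 (adjusted p = 0.22) without DTT repeat 3. ATCG00950 had 1, 0 and 1 counts with DTT, a ratio of 9.26 (interval 2.25 to 81.7, adjusted p = 0.0081) below mock. All 6 root markers were detected, PIP2B with only 62 counts over all libraries. Of the 6 root markers, 5 fell with DTT, with the sums given above. Their part in these results was not tested.

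The proline analogue gave no call among the chloroplast loci, against 3.86% of all loci. At an unadjusted p under 0.05 there were 16 of the 62 in edgeR's test, beside 2027 of all 14415 loci. DESeq2 and limma-voom made no call among the 62. With only the compared libraries in the fit, or without a filter on low counts, 1 locus was higher and 8 were lower. Without WT mock repeat 3 the number at an unadjusted p under 0.05 fell to 6, beside 1683 of all 14415 loci. Of the 6 root markers 4 were lower and 1 was higher with AZC, and their part in these values was not tested. The sign was nevertheless mostly the same, with 52 of 62 below 0 and a median of -0.38, beside 7055 of 14415 loci below 0 and a median of 0.01. Without overlap, 17 loci lay below mock and 1 above, beside 9.43% of all loci below and 8.82% above. ndhJ was at 44.0, 31.2 and 33.6 CPM with AZC, a difference of -1.06 ± 0.40 from mock (adjusted p = 0.15), and its highest AZC library lay above its lowest mock library. ATCG00630 was at 5.83, 7.63 and 10.1 CPM with AZC and at 26.8, 8.38 and 47.7 CPM under mock, a difference of -1.87 ± 0.58 (adjusted p = 0.060), again with overlap. cemA had 2, 1 and 2 counts with AZC and 7, 4 and 16 under mock, a difference of -2.32 ± 0.78 (adjusted p = 0.089). ATCG00480 went the other way, at 161, 227 and 162 CPM, 0.54 ± 0.17 above mock (adjusted p = 0.073).

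**Figure D4:**
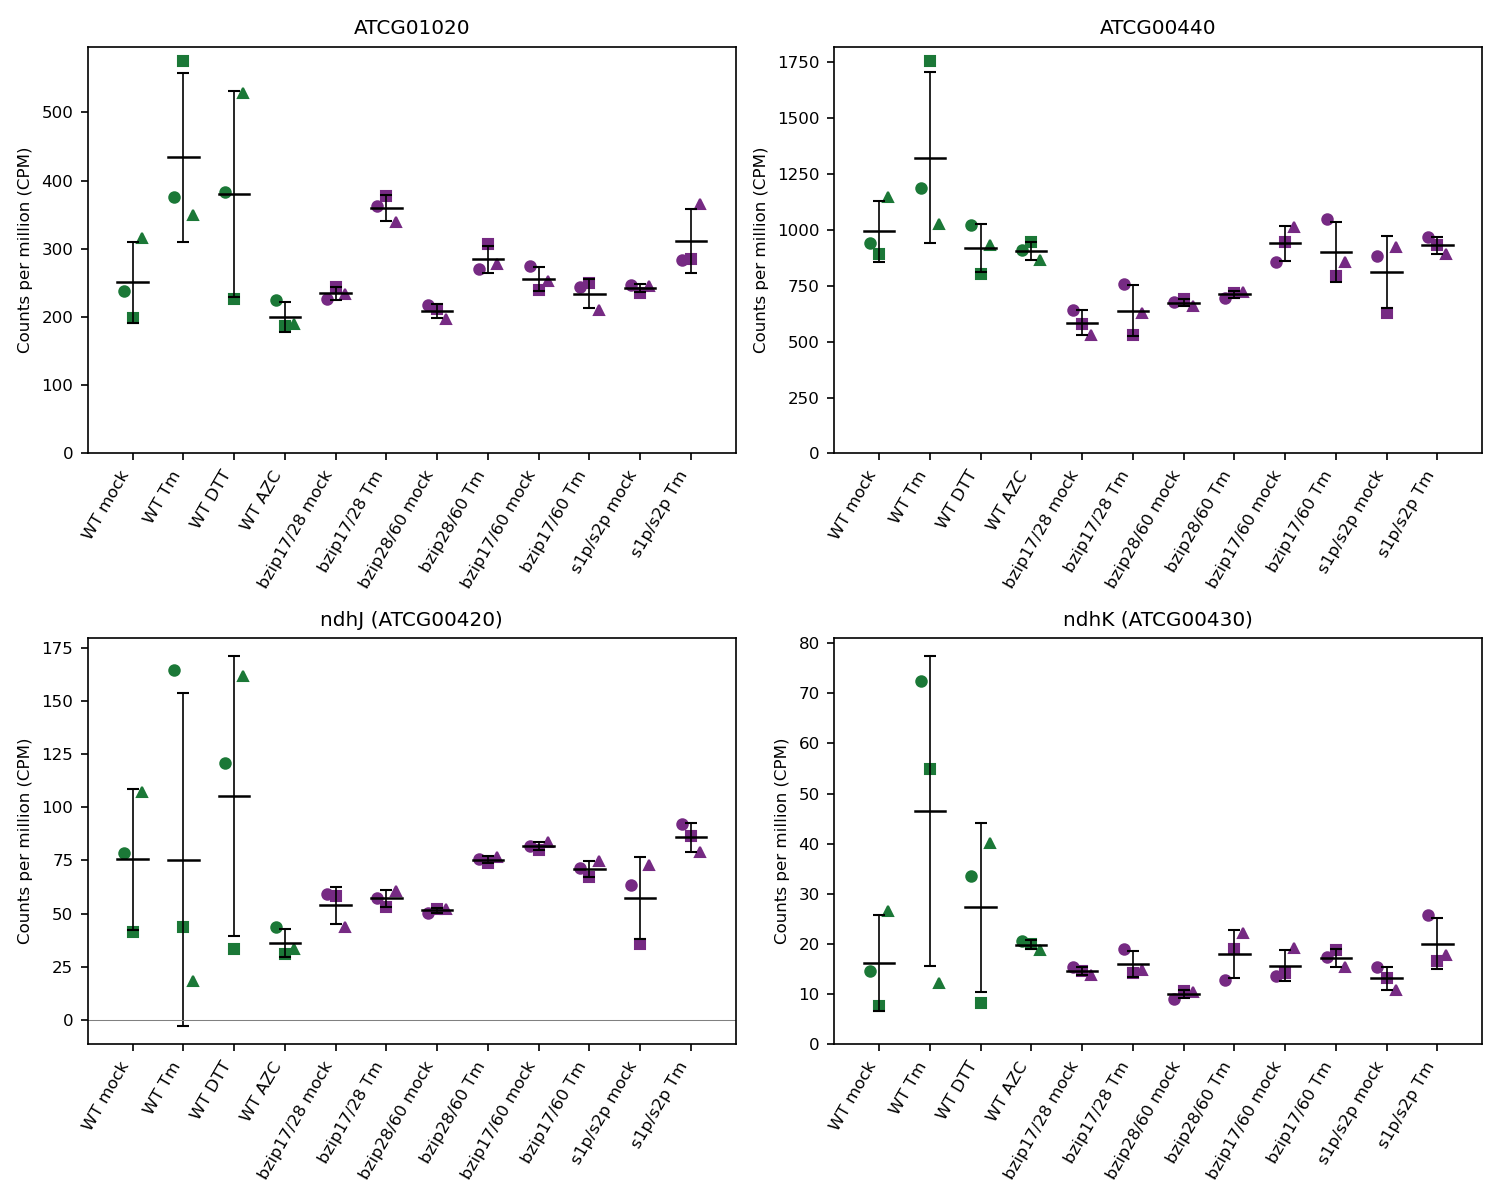
CPM of ATCG01020, ATCG00440, ndhJ and ndhK in each library of the 12 groups (circle, square and triangle for repeats 1, 2 and 3; green WT, purple double mutants), with mean and SD of 3. ndhJ and ndhK spread widely within WT mock, Tm and DTT, and ATCG01020 is higher in the 3 Tm libraries than in the 3 mock libraries of WT and of bzip17/28.

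Comparisons among the inducers share libraries with the ones above. Between DTT and AZC 11 loci were higher with DTT and none was lower, against 12.2% of all loci called in either direction and 6.38% called higher, and 56 of 62 were above 0 with a median of 0.77. ATCG01020 was higher by 0.92 ± 0.18 (adjusted p = 0.00022), a call kept with every other setting and with any 1 library left out. ndhJ was higher by 1.51 ± 0.39 (adjusted p = 0.0056), at 121, 33.2 and 162 CPM with DTT, and lost the call without DTT repeat 3 (adjusted p = 0.10). clpP was higher by 1.00 ± 0.29 (adjusted p = 0.013), at 76.5, 26.8 and 99.8 CPM with DTT and at 32.8, 37.4 and 30.3 CPM with AZC. DTT repeat 2 lay inside the AZC range for ndhJ and below it for clpP, and the other DTT libraries lay above it for both. cemA had 15, 1 and 20 counts with DTT and was higher by 2.88 ± 0.73 (adjusted p = 0.0047).

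The other 7 loci of this comparison are identifiers without a name. ATCG00650 was higher by 0.81 ± 0.26 (adjusted p = 0.028) and ATCG00780 by 1.54 ± 0.45 (adjusted p = 0.016). ATCG00630 was higher by 1.84 ± 0.59 (adjusted p = 0.032), ATCG00270 by 1.59 ± 0.52 (adjusted p = 0.037) and ATCG00680 by 2.19 ± 0.64 (adjusted p = 0.015). ATCG00080 had 14 counts in the DTT group and 1 in the AZC group, a ratio of 14.8 (interval 2.25 to 626, adjusted p = 0.022). ATCG01100 had 11 and 1 counts, a ratio of 11.6 (interval 1.69 to 500, adjusted p = 0.045). Without DTT repeat 3, 2 of the 11 calls were left. Without DTT repeat 1, AZC repeat 1 or AZC repeat 3 there were 4, without AZC repeat 2 there were 6, and without DTT repeat 2 all 11 were.

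Between Tm and AZC 8 loci were higher with Tm and none was lower, against 12.5% of all loci called in either direction and 5.67% called higher. They included ATCG01130 (0.60 ± 0.17, adjusted p = 0.013) and ATCG00440 (0.54 ± 0.15, adjusted p = 0.011). ATCG01020 was higher by 1.11 ± 0.18 (adjusted p = 1.37e-05) and ATCG00220 by 1.38 ± 0.24 (adjusted p = 3.49e-05), without overlap, and both calls were kept under every setting and with any 1 library left out. ATCG00740 was higher by 0.60 ± 0.16 (adjusted p = 0.0057) and ATCG00820 by 0.63 ± 0.20 (adjusted p = 0.033). ndhK was higher by 1.17 ± 0.36 (adjusted p = 0.024) and ATCG00810 by 1.17 ± 0.34 (adjusted p = 0.015), with Tm repeat 3 below the AZC range for ndhK and inside it for ATCG00810. Without Tm repeat 2 or without AZC repeat 3, 2 of the 8 calls were left, and without AZC repeat 1 there were 5. The median of the 62 loci was 0.22, and -0.31 without Tm repeat 1.

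Between Tm and DTT 2 loci were higher and 5 lower with Tm, against 16.5% of all loci. ATCG00440 was higher by 0.52 ± 0.15 (adjusted p = 0.011), at 1184, 1754 and 1026 CPM with Tm and at 1019, 802 and 933 CPM with DTT. ATCG00220 was higher by 0.93 ± 0.23 (adjusted p = 0.0027). Without Tm repeat 2 these values were 0.24 (adjusted p = 0.32) and 0.46 (adjusted p = 0.19), and both calls were also lost without DTT repeat 2 (adjusted p = 0.086 and 0.056). ATCG00270 had 2 counts in the Tm group and 40 in the DTT group, a ratio of 19.8 (interval 5.13 to 169, adjusted p = 9.44e-05), a call kept under every setting and with any 1 library left out. ATCG00150 had 3 and 23 counts, a ratio of 7.58 (interval 2.29 to 39.4, adjusted p = 0.032). ATCG00550 was lower by -1.85 ± 0.58 (adjusted p = 0.022), ATCG00490 by -1.23 ± 0.44 (adjusted p = 0.046) and ATCG00020 by -0.95 ± 0.30 (adjusted p = 0.021). The ATCG00490 call was lost under 5 of 10 other settings. Those of ATCG00550, ATCG00020 and ATCG00440 were lost under 2 each, and those of ATCG00150 and ATCG00220 under 1. Without Tm repeat 2, 2 of the 7 calls were left, and without Tm repeat 3 or any 1 DTT library there were 4. Other loci also passed: without DTT repeat 2 there were 16 lower and none higher, and without Tm repeat 1 there were 23 lower and 2 higher.

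Among the 4 mutants Tm gave 1 call. In bzip17/28, ATCG01020 rose by 0.62 ± 0.18 (adjusted p = 0.017) from 227, 244 and 233 CPM to 363, 377 and 340 CPM, against 8.02% of all loci called. The groups did not overlap, and the call was lost without mock repeat 1 or 3 (adjusted p of up to 0.057). There was no call in bzip28/60 (1.66% of all loci), bzip17/60 (2.16%) or s1p/s2p (2.43%), in edgeR's test, DESeq2 or limma-voom. At an unadjusted p under 0.05 in edgeR's test there were 4, 2 and 4 chloroplast loci, beside 1404, 1520 and 1550 of all 14415 loci. With only the compared libraries in the fit 3 loci were called higher in bzip28/60 and 1 in s1p/s2p, and without a filter on low counts 1 in s1p/s2p. In s1p/s2p 54 of 62 loci were above 0, beside 7259 of all 14415 loci, with a median of 0.31. Without overlap, 11 loci lay above mock and 0 below, beside 8.77% of all loci above. This was not particular to s1p/s2p, with 11 above and 3 below in bzip28/60, 9 and 2 in bzip17/28, and 2 and 6 in bzip17/60. For these mutants the shares of all loci are not given. One of the s1p/s2p mock libraries had the lowest chloroplast share of all 36, at 0.489%, and the other 2 had 0.680 and 0.670%. The summed root markers were lower with Tm in every mutant, with means of 177 and 106 CPM (mock and Tm) in bzip17/28, 149 and 89.1 CPM in bzip28/60, 115 and 53.6 CPM in bzip17/60 and 62.0 and 32.7 CPM in s1p/s2p, beside 129 and 124 CPM in WT. Their part in these results and in the differences that follow was not tested.

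The Tm response of each mutant was compared with that of WT in the same fit, and these 4 differences share the WT libraries. ATCG00270 passed in all 4, against 2.51% of all loci called for bzip17/28, 2.69% for bzip28/60, 2.43% for bzip17/60 and 1.29% for s1p/s2p. Its counts with Tm were 9, 8 and 9 in bzip17/28, 9, 11 and 12 in bzip28/60, 10, 14 and 15 in bzip17/60 and 10, 22 and 17 in s1p/s2p, beside 2, 0 and 0 in WT. The mutants' own changes did not pass, at 0.71 ± 0.57 (adjusted p = 0.59), 0.34 ± 0.49 (adjusted p = 0.93), 0.17 ± 0.45 (adjusted p = 0.95) and 0.50 ± 0.43 (adjusted p = 0.78). The differences were 4.15 ± 1.05 (adjusted p = 0.017), 3.78 ± 1.01 (adjusted p = 0.027), 3.62 ± 0.99 (adjusted p = 0.036) and 3.94 ± 0.97 (adjusted p = 0.029), fitted values that depend on the 2 counts in WT Tm. In bzip17/60 the responses of ATCG00220 and ATCG01020 were also lower than in WT, by -1.19 ± 0.34 (adjusted p = 0.048) and -0.91 ± 0.25 (adjusted p = 0.039). ATCG01020 was at 274, 240 and 252 CPM under mock and at 243, 250 and 210 CPM with Tm in that mutant. All 6 differences were lost without WT Tm repeat 2, with a spread per group, and with only the compared libraries in the fit. Other libraries mattered as well. Of the 12 fits with 1 library left out, ATCG00220 lost the call in 10 and ATCG01020 in 8. ATCG00270 lost it in 3 (bzip17/28) to 7 (bzip17/60).

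Under mock, several chloroplast loci had fewer counts in the double mutants than in WT. bzip17/28 had 11 lower and none higher, against 12.6% of all loci called in either direction and 5.56% called lower. bzip28/60 had 6 lower and none higher, against 3.34% in either direction and 2.21% lower. bzip17/60 had 4 lower and 2 higher (5.38% of all loci), and s1p/s2p 3 lower and 1 higher (4.79%). The medians of the 62 loci were -0.36, -0.59, -0.21 and -0.39, with 49, 55, 40 and 50 loci below 0. Without WT mock repeat 3 the medians were -0.16, -0.34, 0.05 and -0.18. All 4 comparisons share the WT mock libraries. Repeat 3 of WT mock had the most counts outside the 8 most counted loci of the 3, and without it 6 of the 27 calls were left. Without repeat 1 there were 17 and without repeat 2 there were 26. The summed green markers were at 8871 to 9083 CPM in WT mock and at 10103 to 12218 CPM in the mutant mock libraries. The summed root markers were at 119 to 137 CPM in WT mock, at 165 to 190 CPM in bzip17/28, 113 to 169 CPM in bzip28/60, 108 to 122 CPM in bzip17/60 and 54.5 to 66.8 CPM in s1p/s2p mock. The part of either list in these results was not tested. The labels give no library batch, so genotype and batch cannot be told apart.

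ATCG00630, ATCG01010 and ATCG00380 were called lower in each of the 4 mutants. ATCG00630 was at 26.8, 8.38 and 47.7 CPM in WT mock, and its 12 mutant mock libraries lay between 2.08 and 6.31 CPM, all below the lowest WT mock library. It was lower by -3.06 ± 0.63 in bzip17/28 (adjusted p = 0.00051), -2.33 ± 0.57 in bzip28/60 (adjusted p = 0.012), -2.66 ± 0.61 in bzip17/60 (adjusted p = 0.0049) and -3.19 ± 0.66 in s1p/s2p (adjusted p = 0.0018). Without WT mock repeat 3 these values were -2.40 (adjusted p = 0.026), -1.67 (adjusted p = 0.19), -1.995 (adjusted p = 0.12) and -2.53 (adjusted p = 0.046). In WT Tm and WT DTT the same locus spread at least as widely, with 56.5, 16.8 and 1.60 CPM in WT Tm and 29.4, 5.11 and 51.1 CPM in WT DTT. The WT AZC libraries, with the values given above, spread less, and their lowest lay inside the range of the mutant mock libraries.

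ATCG01010 was at 31.6, 23.0 and 49.8 CPM in WT mock and between 5.65 and 19.6 CPM in the 12 mutant mock libraries. It was lower by -1.46 ± 0.43 in bzip17/28 (adjusted p = 0.017), -1.60 ± 0.43 in bzip28/60 (adjusted p = 0.025), -1.66 ± 0.44 in bzip17/60 (adjusted p = 0.017) and -1.54 ± 0.44 in s1p/s2p (adjusted p = 0.029). None of these 4 calls was made by DESeq2, and all 4 were lost without WT mock repeat 3, with adjusted p of 0.17 to 0.22. ATCG00380 was at 65.1, 55.1 and 111 CPM in WT mock and between 28.1 and 49.2 CPM in the 12 mutant mock libraries. It was lower by -1.18 ± 0.25 (adjusted p = 0.00067), -0.88 ± 0.24 (adjusted p = 0.028), -1.07 ± 0.25 (adjusted p = 0.0052) and -1.13 ± 0.25 (adjusted p = 0.0037) in the same order of mutants. Without WT mock repeat 3 it was called in bzip17/28 only (adjusted p = 0.045), with adjusted p of 0.12 to 0.36 in the others.

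**Figure D5:**
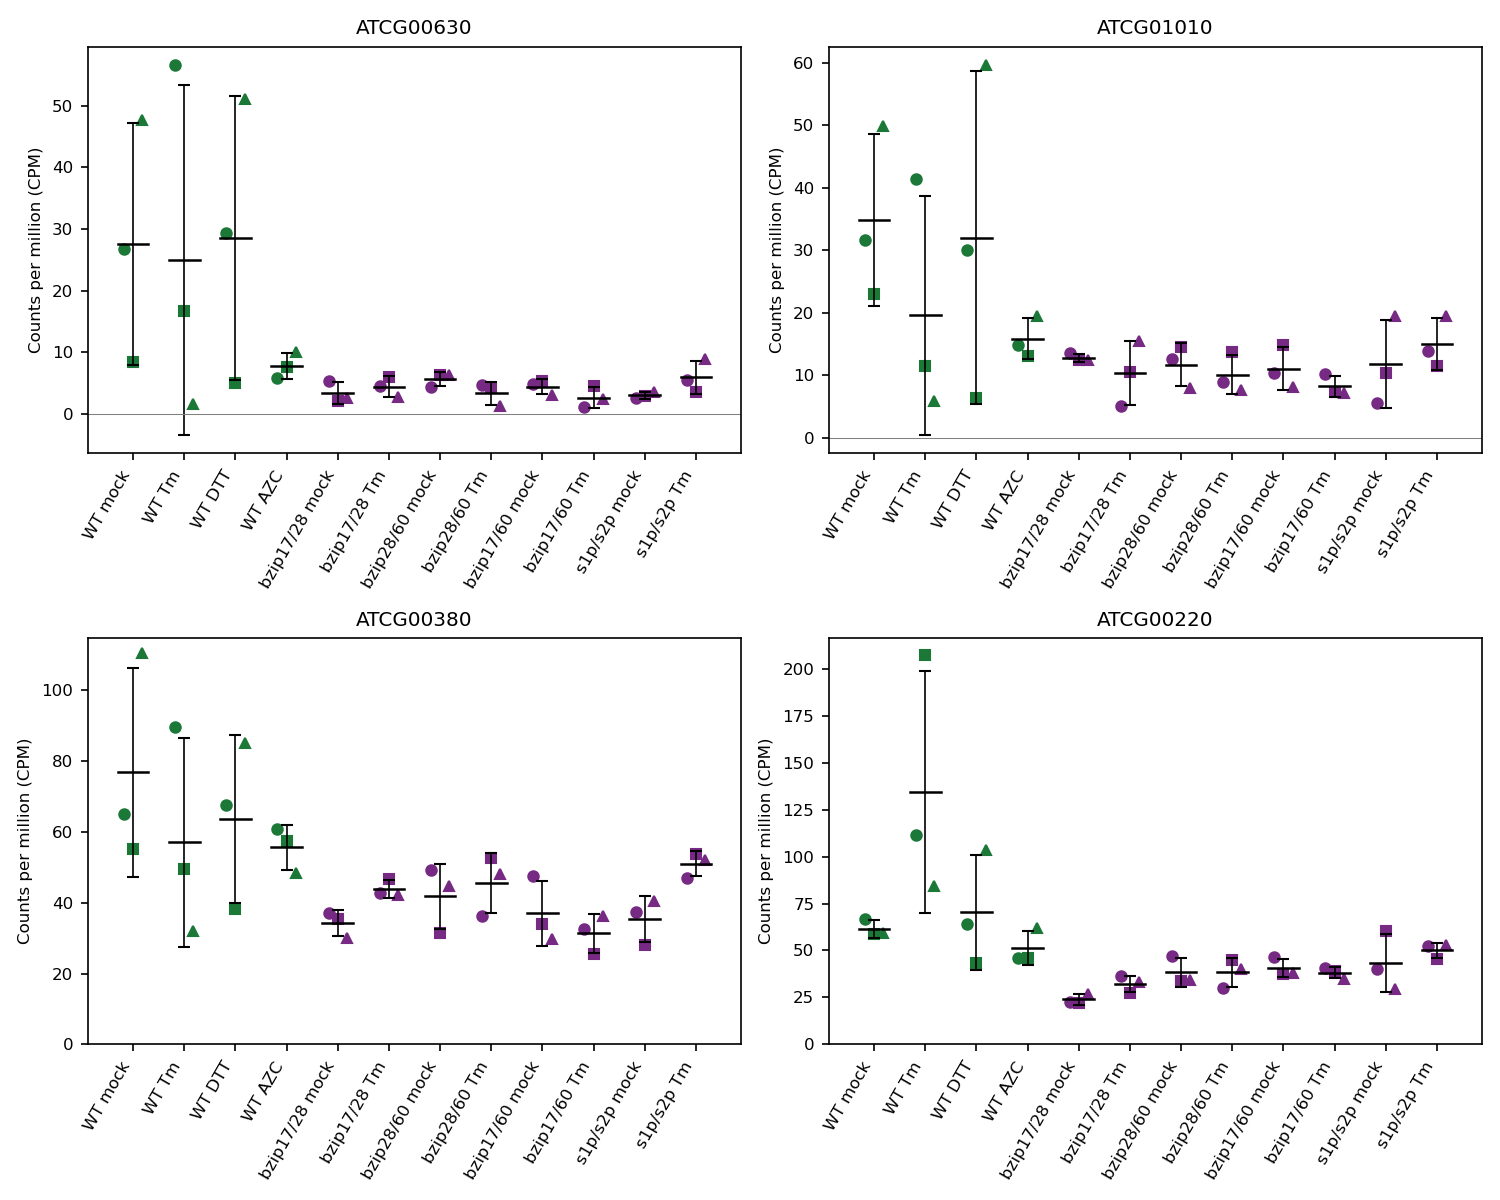
CPM of ATCG00630, ATCG01010, ATCG00380 and ATCG00220 in each library of the 12 groups (circle, square and triangle for repeats 1, 2 and 3; green WT, purple double mutants), with mean and SD of 3. For the first 3 loci every mutant mock library lies below every WT mock library, while the WT libraries themselves spread widely.

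bzip17/28 had the most calls, and 5 of its 11 held under every setting and with any 1 library left out: ATCG00630, ATCG01050, ATCG00220, ATCG00380 and ATCG00440. ATCG00440 was at 940, 891 and 1146 CPM in WT mock and at 642, 579 and 531 CPM in bzip17/28 mock, lower by -0.77 ± 0.15 (adjusted p = 0.00034). In bzip28/60 it was at 675, 690 and 657 CPM, lower by -0.56 ± 0.15 (adjusted p = 0.027, and 0.16 without WT mock repeat 3). ATCG00220 was at 22.6, 22.1 and 27.1 CPM in bzip17/28 mock, below its WT mock libraries, lower by -1.36 ± 0.26 (adjusted p = 0.00019). ATCG01050 was at 20.7, 13.3 and 20.05 CPM in WT mock and at 4.08, 4.17 and 1.78 CPM in bzip17/28 mock, lower by -2.42 ± 0.53 (adjusted p = 0.0010). It was also lower in bzip17/60, by -1.76 ± 0.50 (adjusted p = 0.025, and 0.095 without WT mock repeat 3).

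The other calls against WT mock depended on single libraries. In bzip17/28, ATCG00020 was lower by -1.002 ± 0.30 (adjusted p = 0.020), ATCG01040 by -0.95 ± 0.27 (adjusted p = 0.015), ATCG00650 by -0.79 ± 0.24 (adjusted p = 0.023) and ATCG00740 by -0.44 ± 0.15 (adjusted p = 0.048). In bzip28/60, ATCG00650 was lower by -0.92 ± 0.24 (adjusted p = 0.023). ATCG00510 had no count in bzip17/28 mock and 9 in WT mock, at least 4.18-fold lower (adjusted p = 0.021). ATCG00350 had no count in bzip28/60 mock and 11 in WT mock, at least 5.21-fold lower (adjusted p = 0.029). Both bounds take 3 counts over the group as the floor. Without WT mock repeat 3 none of these 7 calls remained.

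ATCG00470, the most counted locus, went up in a mutant. It was at 3125, 3371 and 3777 CPM in bzip17/60 mock and at 2292, 2661 and 2029 CPM in WT mock, higher by 0.56 ± 0.13 (adjusted p = 0.0068, and 0.075 without WT mock repeat 3). rpl20 was called in no comparison, and its WT mock libraries were at 7.30, 5.58 and 11.9 CPM beside 10.4, 10.8 and 9.08 CPM in bzip17/60 mock.

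The 30 loci without a call in any comparison ran from ATCG00790 and ATCG00800 down to ATCG01060. ATCG00790 was at 70.1 to 382 CPM in the WT libraries and at 152 to 322 CPM in the mutants, and ATCG00800 at 92.2 to 220 CPM and at 85.4 to 200 CPM. ATCG00340 was at 29.02 to 84.5 CPM in WT and at 28.1 to 67.3 CPM in the mutants, and ATCG00280 at 4.28 to 46.4 CPM and at 7.45 to 37.4 CPM. For all 4 loci the WT range was wider than that of the mutants. The other 26 had medians of 0.198 to 19.3 CPM.

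Of 31 nuclear partner genes, which code for subunits of the same complexes, 28 were tested. With Tm in WT 5 rose and 3 fell, with a median of 0.15, against 11.2% of all loci called. RBCS2B, a small subunit of Rubisco, rose by 0.62 ± 0.15 (adjusted p = 0.0030) and PSAN of photosystem I by 0.76 ± 0.19 (adjusted p = 0.0056). PSAO of photosystem I fell by -0.64 ± 0.13 (adjusted p = 0.00077) and DRT112, a plastocyanin, by -0.49 ± 0.13 (adjusted p = 0.0067). With DTT the single call was PSBQ-2 of photosystem II, at -1.41 ± 0.43 (adjusted p = 0.021, against 11.0% of all loci), and AZC had no call (3.86%). Under mock the mutants had 2 higher and 4 lower (bzip17/28, against 12.6% of all loci), 2 higher (bzip28/60, 3.34%), 3 higher (bzip17/60, 5.38%) and 1 of each (s1p/s2p, 4.79%). PSAD-2 of photosystem I was higher by 0.53 ± 0.12 in bzip28/60 (adjusted p = 0.0063), 0.62 ± 0.12 in bzip17/60 (adjusted p = 0.00080) and 0.55 ± 0.12 in s1p/s2p (adjusted p = 0.0031).

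Of 35 nuclear genes for plastid gene expression 25 were tested. With Tm in WT 3 fell and none rose, with a median of -0.18, and the shares of all loci called are those given for the partner genes. Under mock the mutants had 1 of each (bzip17/28), 1 lower (bzip28/60), 2 higher (bzip17/60) and 1 of each (s1p/s2p). The genes that fell with Tm in WT included HCF152, a protein that processes the transcripts of a chloroplast operon (-1.03 ± 0.24, adjusted p = 0.0021). Also among them was CP29, a chloroplast RNA-binding protein (-1.08 ± 0.28, adjusted p = 0.0072). With AZC, a comparison that shares the mock libraries, 2 fell, HCF152 by -0.80 ± 0.23 (adjusted p = 0.032) and CP29 by -0.995 ± 0.27 (adjusted p = 0.024). With DTT CP33, a protein of the same family as CP29, fell by -0.44 ± 0.13 (adjusted p = 0.022). Every call named here with Tm or DTT, partner genes included, was lost with only the compared libraries in the fit, and both with AZC were lost without WT mock repeat 3. SIG2, a sigma factor for chloroplast tRNA and other genes, was higher under mock by 0.70 ± 0.16 in bzip17/28 (adjusted p = 0.0013), 0.75 ± 0.16 in bzip17/60 (adjusted p = 0.0016) and 0.53 ± 0.16 in s1p/s2p (adjusted p = 0.039). SIGF, another sigma factor, was lower by -0.45 ± 0.13 in bzip17/28 (adjusted p = 0.014), -0.45 ± 0.13 in bzip28/60 (adjusted p = 0.036) and -0.52 ± 0.13 in s1p/s2p (adjusted p = 0.0099). The SIG2 calls in bzip17/28 and bzip17/60 held under every setting and with any 1 library left out.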

How the data were processed

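The deposited files give, for each transcript model, the authors' whole-number read counts. The submitters' processing notes name Trim Galore 0.2.8, HTSeq 0.6.0, TopHat2 2.1.1 and SAMtools. Build, annotation and strandedness are not given in the sources used here, and the reads of a gene and of one that overlaps it, on either strand, may be mixed. A library had 2.69 to 6.32% of its reads on no feature and 38.4 to 41.4% ambiguous, and both stayed out of library sizes. Each of the 62 chloroplast loci has 1 model. Libraries had a median of 2011039 assigned counts. Most chloroplast identifiers are not paired with gene names or sequences in the sources used here, and no sequence is given.

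One edgeR 4.0.16 fit (R 4.3.3) covered the 36 libraries and the 14415 loci with at least 30 counts in all, with TMM scaling, the quasi-likelihood test, Benjamini-Hochberg adjustment over all loci and 24 residual degrees of freedom. The fit was tested on simulated data in which each locus had the same spread in every group. The wider spread of WT Tm was therefore not covered by that test. The 18 comparisons were inducers against mock and each other in WT, Tm against mock in each mutant, each mutant against WT under mock, and differences of Tm responses. Alternatives were other scaling factors, other filters, DESeq2 1.42.0, limma-voom with a spread per group (limma 3.58.1), only the compared libraries, each library left out, a block for the repeat number, and transcript models as deposited. Loci were named if called or if their median was at least 20 CPM, and nuclear genes if among the 2 called genes of a list with the lowest p in each direction. Members and lists were chosen with earlier results of these data known, and the lists were written from memory as locus tags. S2P is not analysed here, and 1 chloroplast locus that enters the counts is not reported here.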

Additional observations from a re-analysis of the deposited data

Results flagged for a closer look

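Each of the 6 results below is a difference between the Tm response of a mutant and that of WT that passed the test of the difference itself. ATCG00270 differed by 4.15 in bzip17/28, 3.78 in bzip28/60, 3.62 in bzip17/60 and 3.94 in s1p/s2p on the log2 scale. These 4 values share the WT Tm libraries, which held 2 counts of the locus in all. In bzip17/60 ATCG00220 differed by -1.19 and ATCG01020 by -0.91.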

How the results depend on the processing

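Counts of called chloroplast loci that moved by over 1.5 times are given here in the order of the report. No called locus named in the report changed its sign under the alternatives run, but medians of the 62 loci did. With a spread per group (limma-voom) there were 2 (Tm against mock), 2 (Tm against DTT), 3 (Tm against AZC), 5 (DTT against AZC), 2 (Tm in bzip17/28) and 0 in the 4 differences of Tm responses. With only the compared libraries there were 3 (Tm against mock), 9 (AZC against mock), 2 (Tm against DTT), 4 (Tm against AZC), 3, 3 and 1 (Tm in bzip17/28, bzip28/60 and s1p/s2p), 11, 10 and 8 (bzip28/60, bzip17/60 and s1p/s2p against WT) and 0 in the 4 differences. Without a filter there were 9 (AZC against mock), 13 (Tm against DTT), 13 (Tm against AZC), 18 (DTT against AZC), 3 and 1 (Tm in bzip17/28 and s1p/s2p), 12, 10 and 9 against WT, and 5, 4, 5 and 4 differences. DESeq2 gave 1 (DTT against mock), 2 (Tm in bzip17/28), 3 (bzip28/60 against WT) and 0 differences for bzip17/28 and s1p/s2p. It gave no adjusted p for ATCG00270 in any of the 4 differences, so its counts there do not check edgeR's calls of that locus. Its single difference for bzip28/60 was at another locus and lower than in WT. The filterByExpr filter, which 45 of the 62 loci passed, gave 1 with DTT. It gave 2 for Tm in bzip17/28, as did library size alone and transcript models as deposited, and library size alone gave 1 difference for bzip17/60. The cause was not tested.

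With 1 library left out, the counts ranged from 3 to 17 (Tm against mock), 1 to 7 (DTT), 0 to 2 (AZC), 2 to 25 (Tm against DTT), 2 to 14 (Tm against AZC), 2 to 22 (DTT against AZC), 0 to 2 (Tm in bzip17/28), 5 to 11, 0 to 6, 0 to 7 and 1 to 7 (mutants against WT) and 0 to 8, 0 to 9, 0 to 5 and 0 to 9 (differences). The median log2 change of the 62 loci went from -0.29 to 0.07 without WT mock repeat 3 and 0.11 without Tm repeat 3 (Tm against mock), from 0.17 to -0.06 without DTT repeat 3 (DTT against mock), from 0.22 to -0.31 without Tm repeat 1 (Tm against AZC) and from -0.21 to 0.05 without WT mock repeat 3 (bzip17/60 against WT mock). The median difference of Tm responses changed sign under 6 settings in bzip17/60 (0.07, lowest -0.25 without WT Tm repeat 3), without WT Tm repeat 3 in bzip17/28 (0.33 to -0.08) and in DESeq2 for bzip28/60 (0.39 to -0.02). Without ATCG00470 the log2 ratio of the share was -0.28 (AZC against mock), 0.58 (Tm against AZC), and -0.24, -0.32 and -0.060 (bzip17/28, bzip28/60 and bzip17/60 against WT mock, the last from 0.20).

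Libraries showed no steady pairing by repeat number. In 0 of 14 pairs of groups was every correlation over 0.1, with r from -0.163 to 0.237 over 8976 loci. WT DTT against WT mock had r of -0.019, 0.234 and 0.237 in repeats 1, 2 and 3. With 3 libraries per group this check cannot exclude pairing. With the replicate block the counts were 6, 2 and 0 (Tm, DTT and AZC against mock), 6, 8 and 12 among inducers, 11, 6, 6 and 5 against WT, and 1, 1, 2 and 1 differences. Protein-coding chloroplast loci alone were not run. Depth limits the 12 loci with 30 to 99 counts most.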
